A study of Rattus norvegicus with 3 samples.

Results

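Microglia nuclei were taken from 3 single-nucleus RNA libraries of the rat nucleus accumbens, a ventral part of the striatum that takes part in reward and motivation. The members were chosen by measured values, namely their raw UMIs (unique molecular identifiers, each standing for 1 captured transcript). A nucleus had to show 500 genes or more, no more than 5% of UMIs from mitochondrial genes, and UMIs of Csf1r, Cx3cr1, P2ry12, C1qa, C1qb, C1qc, Inpp5d, Dock8, Apbb1ip, Ikzf1 and Runx1 that summed to at least 6. It also had to hold fewer than 10 summed UMIs of the spiny neuron genes Ppp1r1b, Bcl11b, Pde10a, Rgs9 and Rarb, and at most 2 of the myelin genes Mog, Mag and Opalin. By this rule 640 of 10806 kept nuclei were microglial (11424 barcodes in all). They were 173 of 3520 kept nuclei in the urolithin A library, 262 of 3810 in the high anxiety library and 205 of 3476 in the low anxiety library.

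The animals were outbred Wistar rats of 16 weeks, sorted into anxiety groups by their behaviour in the elevated plus maze and in open field and object tests. The urolithin A library came from high anxiety rats given urolithin A for 2 months, the high anxiety library from high anxiety rats without it, and the low anxiety library from low anxiety rats. Urolithin A is a compound that gut microbes make from plant ellagitannins and that is known to induce mitophagy, the removal of worn mitochondria. Each library pooled tissue punches from 5 hemispheres, and each group is 1 library, so no value has a replicate check and animals cannot be told apart within a group. The sex of the animals is not given in the labels used here.

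Microglia are the resident macrophages of the brain. They arise from yolk sac precursors, depend on signalling through the CSF1 receptor, survey the tissue with motile processes, and clear debris and synaptic material through complement, Fc and lipid receptors. At rest they carry a homeostatic gene set that includes P2ry12, Tmem119 and Sall1, and under challenge they can take up antigen-presenting, interferon-responding or lipid-handling states. The nucleus holds only part of the RNA of these small cells, so transcripts that are quickly exported or made in short bursts are seen less well than in whole cells.

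Microglia nuclei held 358030 UMIs in the urolithin A library, 516068 in the high anxiety library and 340206 in the low anxiety library. The median nucleus held 1897 UMIs in the urolithin A library, 1908.5 in the high anxiety library and 1633 in the low anxiety library, against 5086, 5161.5 and 4311 UMIs in the other nuclei of the same 3 libraries. The median mitochondrial share of microglia nuclei was 0.537% in the urolithin A library, 0.497% in the high anxiety library and 0.898% in the low anxiety library. The low anxiety members were therefore the shallowest and carried the highest mitochondrial share. A few barcodes were shared, 6 between the urolithin A and high anxiety libraries, 4 between the urolithin A and low anxiety libraries and 6 between the high and low anxiety libraries, and no shared barcode was a microglia nucleus in both. All intervals given here are 95% intervals for counting error only, nuclei are not replicates, and no test between groups was possible.

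The marker sum separated the members by a wide gap, as the plot of marker sums shows. Its median over members was 60 UMIs in the urolithin A library, 57 in the high anxiety library and 52 in the low anxiety library. The 3 lowest members held 11, 20 and 24 UMIs in the urolithin A library, 24, 25 and 27 in the high anxiety library, and 22, 23 and 24 in the low anxiety library. The highest sums among nuclei outside the marker threshold were 4, 4 and 3 UMIs in the urolithin A library, 5, 5 and 4 in the high anxiety library, and 5, 5 and 5 in the low anxiety library. A further 7 nuclei in the urolithin A library, 19 in the high anxiety library and 11 in the low anxiety library met the marker sum and were set aside for their spiny neuron or myelin UMIs. No member had a sum of 6 to 10, so raising the minimum to 10 leaves the same nuclei.

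**Figure D1:**
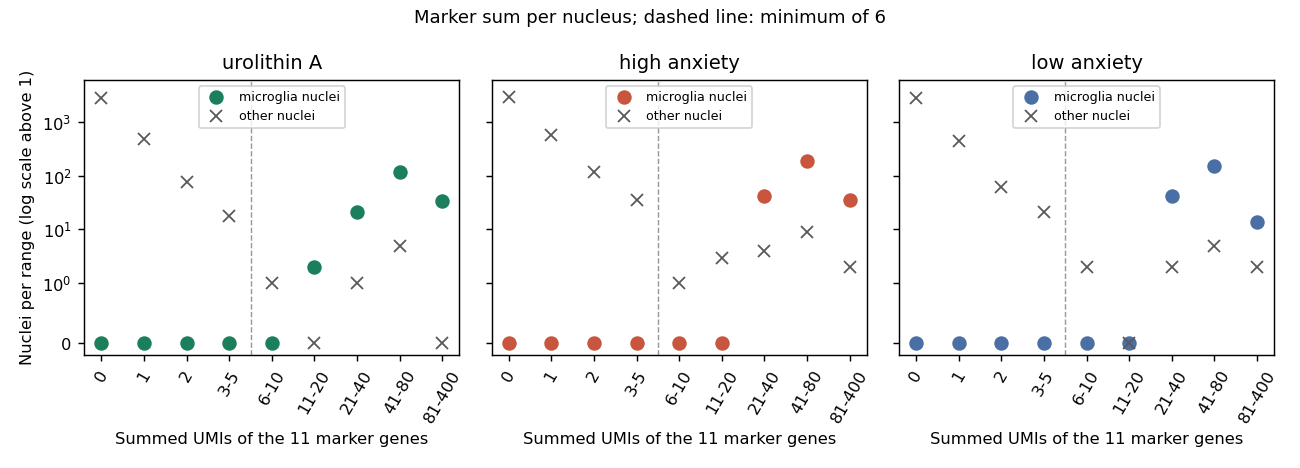
Number of kept nuclei (vertical axis, log scale above 1) in each range of summed UMIs of the 11 marker genes (horizontal axis) in the urolithin A, high anxiety and low anxiety libraries, for microglia nuclei (circles) and other nuclei (crosses), with the minimum of 6 dashed. Member nuclei lie at 11 UMIs and above with medians of 60, 57 and 52, and the crosses right of the line are the 7, 19 and 11 nuclei set aside for spiny neuron or myelin UMIs.

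The rule genes describe how the members were chosen and support nothing further. Cx3cr1, the fractalkine receptor, stood at 4729 CPM (UMIs of a gene per 1000000 UMIs of all members of the library) in the urolithin A library, 4389 in the high anxiety library and 5138 in the low anxiety library. The complement gene C1qa stood at 7611, 7712 and 7587 CPM in the same order of libraries. P2ry12, a purinergic receptor of surveying microglia, stood at 1567 CPM in the urolithin A library, 1457 in the high anxiety library and 2031 in the low anxiety library.

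Genes that the rule did not use gave the same cell type label. Of the 18 listed microglia markers outside the rule, 17 were matched and 16 were detected, Siglech being listed at 0. Ctss, the lysosomal protease cathepsin S, stood at 24314 CPM in the urolithin A library, 21071 in the high anxiety library and 33683 in the low anxiety library, which was 1191, 615 and 770 times its level in the other nuclei of those libraries. The other nuclei are all kept nuclei that are not members. They include the 7, 19 and 11 nuclei that met the marker sum and were set aside, whose part in such values was not tested. Trem2, a lipid-sensing receptor, stood at 2126, 2238 and 2225 CPM in the urolithin A, high anxiety and low anxiety libraries. Tmem119, a surface protein that sets microglia apart from other macrophages, stood at 930 CPM in the urolithin A library, 984 in the high anxiety library and 726 in the low anxiety library. Sall1, a transcription factor of microglial identity, stood at 668, 643 and 667 CPM in the same order.

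Thinning each nucleus to 1000 UMIs put members and other nuclei at the same depth. Ctss was then found in 100% of members in each library, against 1.05% of the other nuclei in the urolithin A library, 1.51% in the high anxiety library and 2.10% in the low anxiety library. Trem2 was found in 84.8% of members in the urolithin A library, 79.3% in the high anxiety library and 81.9% in the low anxiety library, and in at most 0.40% of other nuclei in any library. Tmem119 was found in 53.8%, 56.3% and 47.2% of members of the urolithin A, high anxiety and low anxiety libraries. These shares rest on 171, 261 and 199 members, since 2, 1 and 6 members of those libraries were shallower. Of the 1116 genes with at least 50 UMIs in members of each library, 545 were at least 2-fold above the other nuclei in each library, 239 at least 10-fold and 110 at least 100-fold. The genes that led this ratio outside the rule included the inhibitory Fc receptor Fcgr2b, the endosomal nuclease Pld4, the Toll-like receptor Tlr7, the macrophage antigen Adgre1, the pore-forming protein Mpeg1 and the nucleotide receptor P2ry6.

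**Figure D2:**
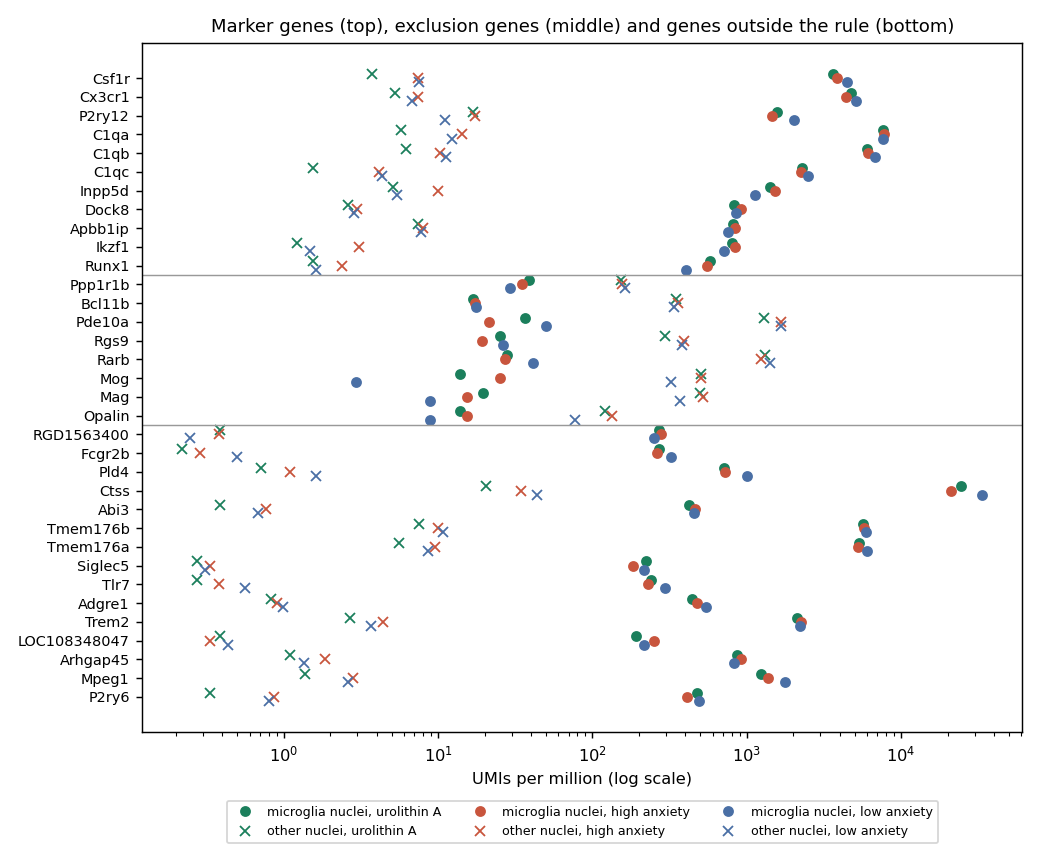
Level in CPM (log scale) of the 11 marker genes of the rule, the 8 genes used to set nuclei aside and 15 genes outside the rule, in microglia nuclei and in all other nuclei of the 3 libraries. Ctss, for example, stands at 24314, 21071 and 33683 CPM in members of the urolithin A, high anxiety and low anxiety libraries, and the other genes outside the rule also stand far above the other nuclei.

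Genes of other immune cells were scarce in these nuclei, apart from the kinase Prkcq of the T and NK cell list. The summed level of the border macrophage list was 86.6 CPM in the urolithin A library, 114 in the high anxiety library and 91.1 in the low anxiety library, with Ms4a7 and F13a1 at 0 and the mannose receptor Mrc1 at 4, 5 and 4 UMIs. In each library 1 nucleus carried much of that signal, with border macrophage sums of 19 of 31, 32 of 59 and 15 of 31 UMIs in the urolithin A, high anxiety and low anxiety libraries and 2 UMIs of 5 homeostatic genes each (P2ry12, Tmem119, Sall1, Gpr34 and Selplg). The T and NK cell list summed to 609 CPM in the urolithin A library, 632 in the high anxiety library and 529 in the low anxiety library, nearly all of it from the kinase Prkcq with 189 of 218, 286 of 326 and 157 of 180 UMIs. The T-cell genes Cd3d, Cd3e and Cd3g and the neutrophil genes S100a8 and S100a9 were at 0 in every library. A count of 0 over all members allows up to 8.38 CPM in the urolithin A library, 5.81 in the high anxiety library and 8.82 in the low anxiety library.

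The summed oligodendrocyte list stood at 1033 CPM in the urolithin A library, 1126 in the high anxiety library and 955 in the low anxiety library, and the astrocyte list at 679, 876 and 776 CPM in the same order. RNA of neurons differed more between the libraries. The neuron list summed to 668 CPM in members of the urolithin A library, 180 in the high anxiety library and 359 in the low anxiety library, against 5262, 5665 and 5758 CPM in the other nuclei. Most of these neuron UMIs in the urolithin A library sat in a few deep members: 6 nuclei above 3500 UMIs held 70.7% of them and 11.1% of all member UMIs of that library. The high anxiety library had 5 such members with 4.12% of its UMIs and the low anxiety library 2 with 2.53%. Without nuclei above 3500 UMIs, the neuron list stood at 220, 168 and 296 CPM in the urolithin A, high anxiety and low anxiety libraries.

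Microglia nuclei were 4.91% of kept nuclei (4.22 to 5.68%) in the urolithin A library, 6.88% (6.09 to 7.73%) in the high anxiety library and 5.90% (5.14 to 6.73%) in the low anxiety library. The intervals of the urolithin A and high anxiety libraries do not meet, but they cover neither the animals nor the punches, and differences in dissection or nucleus recovery cannot be told apart from differences in the tissue. With a stricter nucleus filter of 1000 genes or more and no more than 1% mitochondrial UMIs the low anxiety share was 2.87%, against 5.23% in the urolithin A library and 7.18% in the high anxiety library, so the order of the urolithin A and low anxiety shares depends on the filter.

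Clustering of the members gave no sub-type that could be named. Leiden clustering of the 640 nuclei, with values centred within each library, gave 2 clusters of 324 and 316 nuclei. The first held 50.3% of members in the urolithin A library, 52.7% in the high anxiety library and 48.3% in the low anxiety library. Its nuclei were shallower, with a median of 1615.5 UMIs against 2029 in the second, and it carried more neuron RNA, 555 against 217 CPM over the neuron list. Part of that neuron RNA lay in deep members of the urolithin A library, where nuclei of 8392, 7493 and 6560 UMIs held 43, 54 and 15 UMIs of the neuron list. The genes that led each cluster were found in few nuclei, such as Gpc5 in 9 and Slc1a2 in 11 for the first cluster. For the second cluster Stab1 was found in 9 and Dab2 in 20, and neither cluster was given a name.

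Urolithin A was given to high anxiety rats, so the urolithin A library is set first against the high anxiety library. Members of the urolithin A library held a larger share of UMIs of the antigen presentation genes Cd74, RT1-Da, RT1-Db1 and RT1-CE16, and a smaller share of Nfkb1, which acts in NF-κB signalling, and of the cholesterol exporter Abca1. Most other microglial genes, including the homeostatic set, differed by less than 1.5-fold. The class II part of the antigen presentation signal came from few nuclei.

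A gene counted as measured with at least 50 UMIs in members of 1 of the 2 libraries, and as higher or lower when its CPM differed by at least 1.5-fold (0.58 on the log2 scale). Of 2175 measured genes, 70 (3.22%) were higher and 138 (6.34%) were lower in the urolithin A library than in the high anxiety library, with a median log2 ratio of -0.09 over all of them. Most of this asymmetry lay in genes measured through 1 library: 818 genes reached 50 UMIs only in the deeper high anxiety library and 122 of those were lower, whereas of the 1315 measured in both libraries 28 were higher and 16 lower. Centring the ratios on their median gave 96 higher and 81 lower. Without nuclei above 3500 UMIs 26 genes were higher, so much of the higher group rested on the few deep nuclei. Of 794 measured genes enriched at least 2-fold in microglia nuclei, 10 were higher and 35 lower.

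Class II genes encode the molecules that present peptides to helper T cells. Cd74, the invariant chain that escorts them, had 126 UMIs (352 CPM) in the urolithin A library, 43 (83.3 CPM) in the high anxiety library and 73 (215 CPM) in the low anxiety library. Its log2 ratio of urolithin A over high anxiety was 2.08 (1.57 to 2.61). RT1-Da, a class II alpha chain, had 69, 22 and 32 UMIs in the urolithin A, high anxiety and low anxiety libraries, a log2 ratio of 2.18 (1.47 to 2.94) for urolithin A over high anxiety. RT1-Db1, a class II beta chain, had 60 UMIs in the urolithin A library, 3 in the high anxiety library and 15 in the low anxiety library, with a log2 ratio of 4.85 (3.23 to 7.17) for urolithin A over high anxiety. All 3 genes were highest in the urolithin A library and lowest in the high anxiety library. Between these libraries Cd74 and RT1-Db1 reached 50 UMIs only in the urolithin A library, as did RT1-Da, and all 42 genes so measured were higher there.

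Few nuclei carried these transcripts, as the plot of class II sums shows. Over Cd74, RT1-Da, RT1-Db1, RT1-Ba and RT1-Bb, 21 of 173 members held at least 1 UMI in the urolithin A library (12.1%), 23 of 262 in the high anxiety library (8.78%) and 25 of 205 in the low anxiety library (12.2%). Among oligodendrocyte nuclei, at median depths of 2186, 2317.5 and 1841 UMIs, the shares were 0.104%, 0.184% and 0 of 721 in the same order. The summed 308 UMIs of the urolithin A library, 83 of the high anxiety library and 141 of the low anxiety library included 223, 44 and 86 UMIs in the 2 highest nuclei of each. The highest nucleus of the urolithin A library held 136 class II UMIs and was also 1 of the deep ones, with 8392 UMIs in all and 43 UMIs of the neuron list. The next held 87 among 1387 UMIs and none of the neuron list, and border macrophage UMIs were at 0 in both.

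The order of the libraries held without those nuclei, at smaller size. Leaving out the 2 highest nuclei of each library, the class II sum was 244 CPM in the urolithin A library, 76.3 in the high anxiety library and 164 in the low anxiety library. Without nuclei above 3500 UMIs it was 534, 168 and 425 CPM in the same order. Without its own 2 highest nuclei in each library, Cd74 gave a log2 ratio of 1.65 for urolithin A over high anxiety and RT1-Da of 1.95. RT1-Db1 then had only 5 UMIs in the urolithin A library and 1 in the high anxiety library, since 91.7% of its urolithin A UMIs lay in 2 nuclei. Ciita, the transcriptional activator of class II genes, had 0, 1 and 0 UMIs in the urolithin A, high anxiety and low anxiety libraries.

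**Figure D3:**
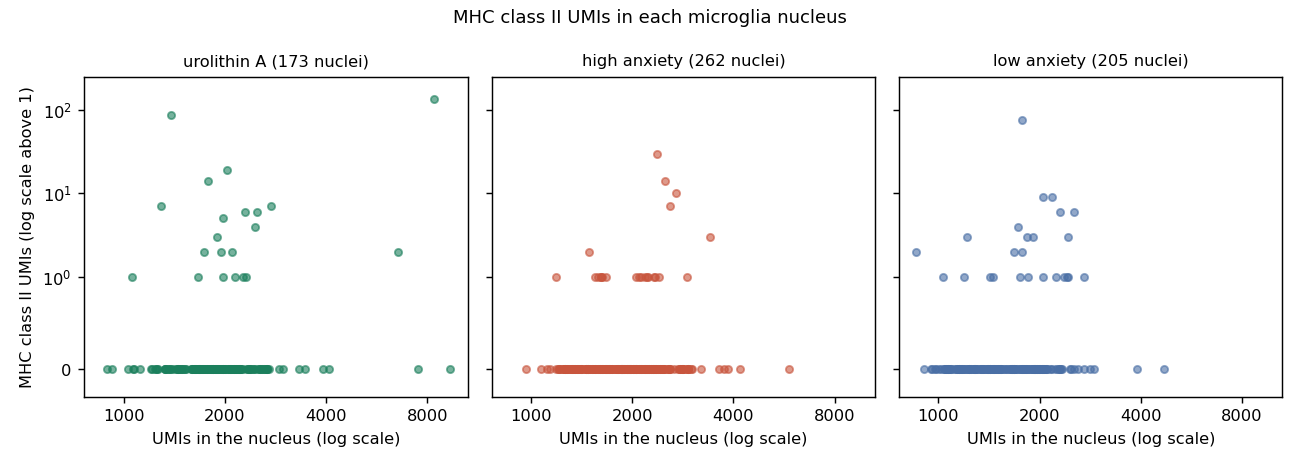
Class II UMIs (Cd74, RT1-Da, RT1-Db1, RT1-Ba and RT1-Bb summed, vertical axis, log scale above 1) of each microglia nucleus against its total UMIs (horizontal axis, log scale), in the urolithin A, high anxiety and low anxiety libraries. Most nuclei hold none, and the highest nuclei hold 136, 30 and 77 UMIs in those 3 libraries.

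RT1-CE16, a class I gene, was spread over many more nuclei. It had 406 UMIs (1134 CPM) in 149 members of the urolithin A library, 318 UMIs (616 CPM) in 153 members of the high anxiety library and 355 UMIs (1043 CPM) in 162 members of the low anxiety library. Its log2 ratio of urolithin A over high anxiety was 0.88 (0.66 to 1.10). The other nuclei of the same libraries held it at 14.6, 6.12 and 11.95 CPM, a log2 ratio of 1.25 for urolithin A over high anxiety, so at its low level there the difference was at least as large. Class I and class II genes of the rat belong to families of near-identical copies, and reads may be split between them.

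The other named genes of this group had smaller ratios than Cd74, RT1-Da and RT1-Db1. Lilrb3l, a leukocyte inhibitory receptor gene, had 53 UMIs in the urolithin A library, 35 in the high anxiety library and 78 in the low anxiety library, with a log2 ratio of 1.13 (0.48 to 1.79) for urolithin A over high anxiety. Cklf, a chemokine-like factor, had 52, 39 and 32 UMIs in the same order and a log2 ratio of 0.94. Asah1, the lysosomal acid ceramidase, had 121 UMIs in the urolithin A library, 116 in the high anxiety library and 110 in the low anxiety library, which lies at the 1.5-fold line with a log2 ratio of 0.59. Cst3, the abundant protease inhibitor cystatin C, was far more precise at 25361 and 31997 UMIs in the urolithin A and high anxiety libraries, and its log2 ratio of 0.19 (0.17 to 0.22) was below the 1.5-fold line. Lilrb3l and Cklf reached 50 UMIs only in the urolithin A library in this pair, and Cst3 did not pass.

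The genes lower with urolithin A included signalling genes. Nfkb1, a precursor of an NF-κB subunit, had 46 UMIs (128 CPM) in the urolithin A library, 132 (256 CPM) in the high anxiety library and 42 (123 CPM) in the low anxiety library, a log2 ratio of -0.99 (-1.51 to -0.50) for urolithin A over high anxiety. The urolithin A and low anxiety libraries lay near each other and the high anxiety library stood above them. The 2 highest nuclei held 8.70%, 5.30% and 11.9% of the Nfkb1 UMIs in the urolithin A, high anxiety and low anxiety libraries, so Nfkb1 did not rest on single nuclei. Nfkb1 reached 50 UMIs only in the high anxiety library, narrowly missing it in the others. In the other nuclei Nfkb1 differed by a log2 ratio of -0.09 for urolithin A over high anxiety.

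Further genes were highest in the high anxiety library. Trim5, an antiviral restriction factor, had 24 UMIs in the urolithin A library, 79 in the high anxiety library and 36 in the low anxiety library, a log2 ratio of -1.19 (-1.92 to -0.52) for urolithin A over high anxiety. Fgfr1, a fibroblast growth factor receptor, had 50, 130 and 61 UMIs in the same order and a log2 ratio of -0.85. Abca1, which exports cholesterol to lipoproteins, had 30 UMIs in the urolithin A library, 82 in the high anxiety library and 32 in the low anxiety library, with log2 ratios of -0.92 (-1.58 to -0.30) for urolithin A over high anxiety and 0.76 (0.15 to 1.39) for high over low anxiety. With the stricter nucleus filter the second Abca1 ratio was 0.05. Trim5 and Abca1 reached 50 UMIs only in the high anxiety library, which means that they could enter the comparison only on its higher side. Ctsd, the protease cathepsin D, was measured well at 500 UMIs in the urolithin A library and 1018 in the high anxiety library, and its log2 ratio of -0.50 (-0.66 to -0.34) did not reach 1.5-fold.

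The 3 highest genes that were not enriched in microglia nuclei were Galntl6, Dpp10 and Kcnip4, which are abundant in neurons and lay mostly in the deep nuclei. Dpp10, a potassium channel subunit of neurons, had 181 UMIs in the urolithin A library, 22 in the high anxiety library and 38 in the low anxiety library, and 84.0% of the urolithin A UMIs lay in 2 nuclei. Without nuclei above 3500 UMIs its log2 ratio of urolithin A over high anxiety was -0.56, against 3.57 with them. For Kcnip4, a neuronal channel-interacting protein, the ratio was -0.000609 without them and 2.88 with them.

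High anxiety rats were next set against low anxiety rats. Members of the high anxiety library had higher levels of Hs3st2, Rims3, Cdh23 and Nfkb1, and lower levels of several lysosomal genes (Ctss, Psap, Grn, Lamp1), of the lipid transfer gene Pltp, of Cd74, and of the mitochondrially encoded genes. None of the measured homeostatic genes reached 1.5-fold before centring. Several of the differences were also present in the other nuclei of these libraries.

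Of 2141 measured genes, 174 (8.13%) were higher and 55 (2.57%) lower in the high anxiety library than in the low anxiety library. The median log2 ratio of all of them was 0.13, and the ratios given here carry that shift. Centring on the median gave 106 higher and 124 lower, so the larger number of higher genes depends on the scaling. Depth enters here too: 910 genes reached 50 UMIs only in the high anxiety library and 147 of those were higher, whereas of 1223 measured in both libraries 27 were higher and 47 lower. Of 810 measured genes enriched in microglia nuclei, 57 were higher and 23 lower. The high anxiety library serves in both this comparison and the one with urolithin A, so opposite signs in the 2 comparisons are linked by shared counts and are given only side by side.

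Hs3st2, an enzyme that sulfates heparan sulfate, had 94 UMIs (262 CPM) in the urolithin A library, 158 (306 CPM) in the high anxiety library and 40 (118 CPM) in the low anxiety library. Its log2 ratio of high over low anxiety was 1.38 (0.87 to 1.92), and in the other nuclei it was 0.73. Hs3st2 too was measured through the high anxiety library in this pair. Rims3, of a family of presynaptic scaffold genes, had 137, 226 and 74 UMIs in the urolithin A, high anxiety and low anxiety libraries and a log2 ratio of 1.01 (0.62 to 1.41) for high over low anxiety. In the other nuclei the Rims3 ratio was 1.03, so its difference was as large there. Cdh23, a cadherin, had 85 UMIs in the urolithin A library, 193 in the high anxiety library and 69 in the low anxiety library, a log2 ratio of 0.88 (0.48 to 1.30) for high over low anxiety against 0.96 in the other nuclei. Susd6, a membrane protein gene, had 202, 365 and 143 UMIs in the urolithin A, high anxiety and low anxiety libraries and a log2 ratio of 0.75 for high over low anxiety.

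Nfkb1 was higher in this comparison as well. The log2 ratio of high over low anxiety was 1.05 (0.54 to 1.59), with 0.14 in the other nuclei. Nfkb1 kept its 1.5-fold difference in both comparisons under the 11 alternatives run. They gave 0.92 to 1.21 for high over low anxiety and -1.03 to -0.87 for urolithin A over high anxiety. At the other UMI minimums and the marker sum of 10 its ratio equals the main value by construction, so those settings could not test it. Nfkb1 reached the UMI minimum only in the high anxiety library, which serves in both comparisons.

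**Figure D4:**
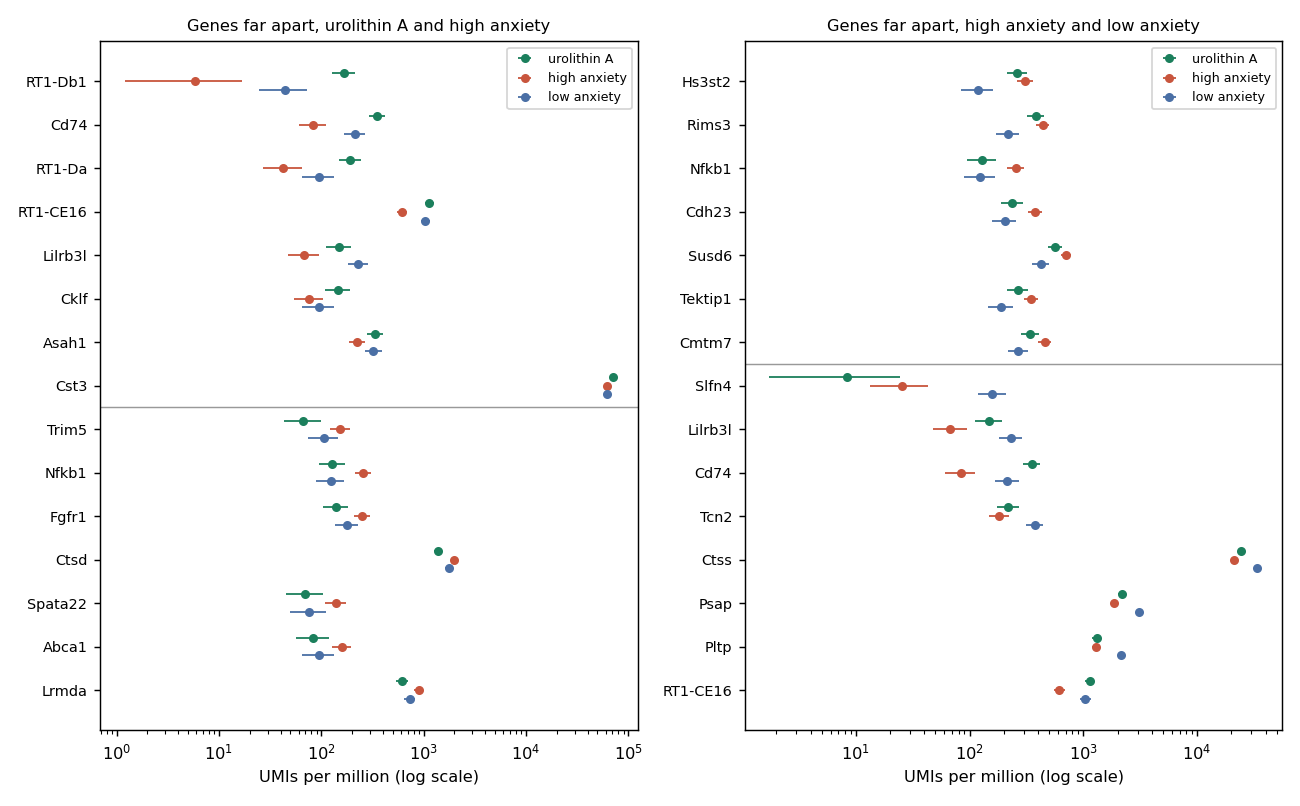
Level in CPM (log scale) in microglia nuclei of the urolithin A, high anxiety and low anxiety libraries of genes far apart between urolithin A and high anxiety (left) and between high and low anxiety (right), higher genes above the line and lower genes below it, with exact 95% intervals for counting error. Cd74, for example, stands at 352, 83.3 and 215 CPM in those 3 libraries, and Cst3, at the other end of the scale, is separated by a log2 ratio of only 0.19.

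Several lysosomal genes with many UMIs were lower in the high anxiety library. Ctss had 8705 UMIs in the urolithin A library, 10874 in the high anxiety library and 11459 in the low anxiety library, with a log2 ratio of -0.68 (-0.71 to -0.64) for high over low anxiety and of 0.21 for urolithin A over high anxiety. Psap, the precursor of the saposins that assist lipid breakdown, had 780, 961 and 1045 UMIs in the same order and a log2 ratio of -0.72 (-0.85 to -0.59) for high over low anxiety, with -0.61 in the other nuclei. Grn, the lysosomal protein progranulin, had 308 UMIs in the urolithin A library, 468 in the high anxiety library and 485 in the low anxiety library. Its log2 ratios were -0.65 for high over low anxiety and -0.73 for urolithin A over low anxiety. Over the lysosome list 4 of 27 measured genes were lower and 0 were higher for high over low anxiety, against 2.57% and 8.13% of all measured genes. After centring on the median 9 of 27 were lower, against 124 of 2141 measured genes. The list's median was -0.29, against 0.13 over all measured genes, -0.22 for the same genes in the other nuclei and -0.30 in oligodendrocyte nuclei. With the stricter nucleus filter, which leaves few low anxiety members, Ctss stood at -0.56 and Psap at -0.55, short of 1.5-fold. A lower level of this list was thus also seen outside microglia nuclei. For urolithin A over high anxiety 0 of 27 passed 1.5-fold, against 3.22% higher and 6.34% lower of all measured genes, and the median was 0.01.

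Single genes of lipid and vitamin transport were lower in the high anxiety library. Of the 11 measured genes of the lipid and cholesterol list 0 were lower and 1 was higher (Abca1), against 2.57% and 8.13% of all measured genes. The list's median was 0.14, against 0.13 over all measured genes. Pltp, the phospholipid transfer protein, had 471 UMIs in the urolithin A library, 665 in the high anxiety library and 734 in the low anxiety library, a log2 ratio of -0.74 (-0.90 to -0.59) for high over low anxiety, and of -0.43 with the stricter nucleus filter. Tcn2, a carrier of vitamin B12, had 78, 94 and 127 UMIs in the same order and a log2 ratio of -1.04 (-1.44 to -0.64), with -0.61 in the other nuclei. Apoe, the main apolipoprotein of brain, had 6553, 8514 and 7227 UMIs in the urolithin A, high anxiety and low anxiety libraries. Its log2 ratio of -0.36 (-0.41 to -0.32) for high over low anxiety was under 1.5-fold and stood at -0.77 in the other nuclei. Cd74 had a log2 ratio of -1.36 (-1.94 to -0.80), RT1-CE16 of -0.76 and Lilrb3l of -1.76 (-2.38 to -1.16) for high over low anxiety. Slfn4, which interferon induces in mouse myeloid cells, had 3 UMIs in the urolithin A library, 13 in the high anxiety library and 54 in the low anxiety library, and 50 of the low anxiety UMIs lay in 3 nuclei.

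The urolithin A library was last set against the low anxiety library. Of 1466 measured genes, 70 (4.77%) were higher and 43 (2.93%) lower in the urolithin A library, with a median log2 ratio of 0.02. Among genes measured in both, 17 were higher and 16 lower of 1122. RT1-Db1 had a log2 ratio of 1.93 (1.09 to 2.85), Hs3st2 of 1.16 (0.61 to 1.73), RT1-Da of 1.03 (0.41 to 1.69) and Rims3 of 0.81 (0.40 to 1.24) for urolithin A over low anxiety. The complement gene C4a, with 25 UMIs in the urolithin A library, 57 in the high anxiety library and 67 in the low anxiety library, had a log2 ratio of -1.50 (-2.22 to -0.81) for urolithin A over low anxiety, against -0.26 in the other nuclei. C4a did not reach 50 UMIs in the urolithin A library, so it could be measured only on the lower side there. Pltp stood at -0.71 (-0.88 to -0.54) for the same pair. Hs3st2 and Rims3 were thus higher than in the low anxiety library with and without urolithin A. Pltp and Hs3st2 stayed short of 1.5-fold with the stricter nucleus filter, at -0.25 and 0.38, and RT1-Da did so with the stricter exclusion of neurons and myelin, at 0.31.

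**Figure D5:**
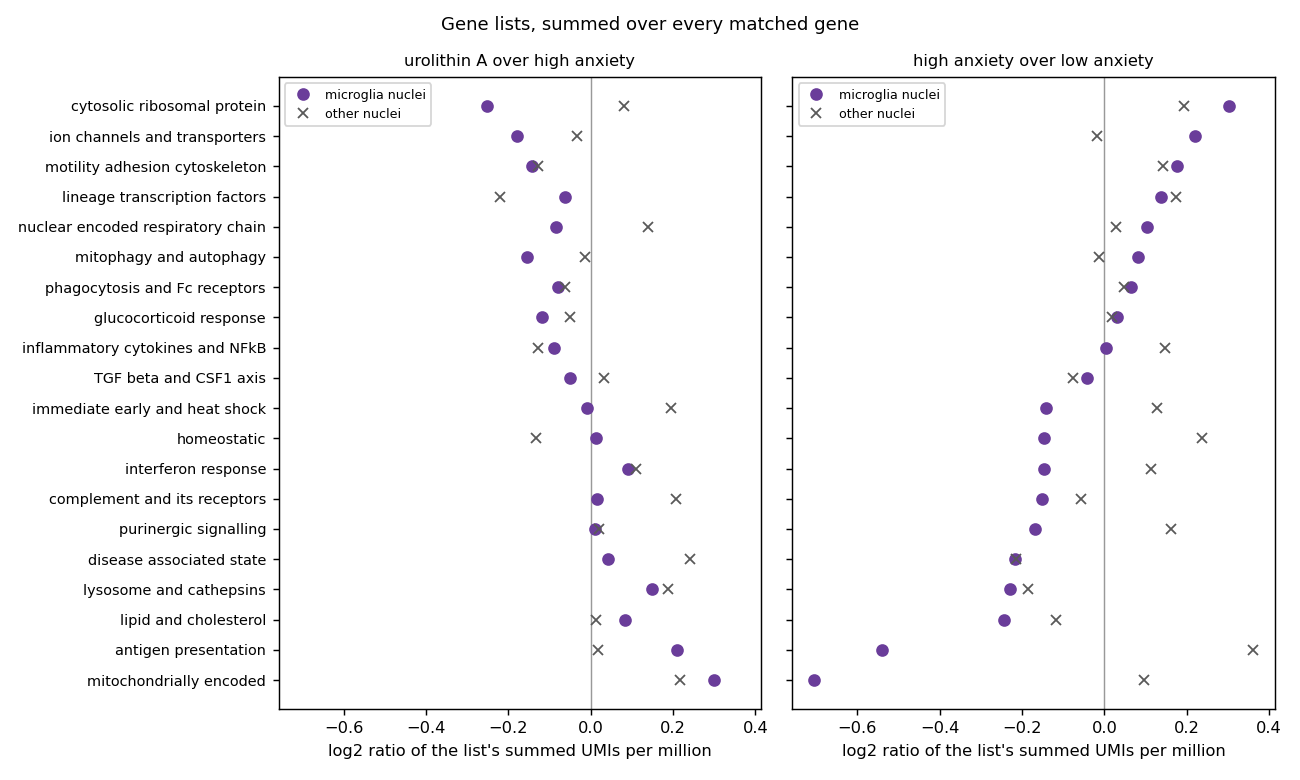
Log2 ratio of the summed CPM of all matched genes of each list (horizontal axis) for urolithin A over high anxiety and for high anxiety over low anxiety, in microglia nuclei (circles) and in the other nuclei (crosses). The mitochondrially encoded list is the lowest for high over low anxiety in microglia nuclei, at -0.70 against 0.10 in the other nuclei, and the antigen presentation list, whose sum is mostly Ctss, stands at -0.54.

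Homeostatic genes differed little between the libraries. None of 17 measured members passed 1.5-fold in any of the 3 comparisons, with medians of -0.08 for urolithin A over high anxiety and -0.05 for high over low anxiety. Of all measured genes 3.22% were higher and 6.34% lower for urolithin A over high anxiety. The same shares for high over low anxiety were 8.13% and 2.57%. After centring on the median, 2 of 17 were lower for high over low anxiety, against 124 of 2141 measured genes. Their summed level was 33659 CPM in the urolithin A library, 33341 in the high anxiety library and 36898 in the low anxiety library. Among lineage transcription factors 2 of 18 were lower for urolithin A over high anxiety (Ikzf2 and Tal1) and 2 of 18 higher for high over low anxiety (Nfatc2 and Fli1), against 6.34% and 8.13% of all measured genes. After centring on the median 0 of 18 passed in either comparison. Spi1, the master regulator of myeloid cells, had 72, 105 and 53 UMIs in the urolithin A, high anxiety and low anxiety libraries and log2 ratios of -0.02 for urolithin A over high anxiety and 0.39 for high over low anxiety.

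The complement list had a lower median in the high than in the low anxiety library, and few uptake genes passed 1.5-fold. Of 11 measured complement genes, 1 was lower for urolithin A over high anxiety (C4a), against 6.34% of all measured genes. For high over low anxiety 2 were lower, against 2.57% of all measured genes. These were C4a and the alternative pathway gene Cfb, with 90, 137 and 154 UMIs in the urolithin A, high anxiety and low anxiety libraries. The complement list's median for high over low anxiety was -0.34, against 0.13 over all measured genes. For the same genes it was -0.14 in the other nuclei and -0.37 in oligodendrocyte nuclei, so a lower median was also seen outside microglia nuclei. After centring 4 of 11 were lower, against 124 of 2141 measured genes. Of 23 phagocytosis and Fc receptor genes, 0 passed 1.5-fold for urolithin A over high anxiety, against 3.22% higher and 6.34% lower of all measured genes. Only Syk, a kinase downstream of Fc receptors, was higher for high over low anxiety, against 8.13% of all measured genes. Syk and the C4a ratio of urolithin A over high anxiety no longer passed 1.5-fold when ratios were centred on their median. Trem2 gave log2 ratios of -0.07 for urolithin A over high anxiety and 0.01 for high over low anxiety.

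Many of the listed genes of activated states had few UMIs in these nuclei, which does not limit the share of cells that express them. Of all measured genes 3.22% were higher and 6.34% lower for urolithin A over high anxiety. The same shares for high over low anxiety were 8.13% and 2.57%. Of the disease-associated genes 15 of 32 were measured, with Fth1, a ferritin chain, lower for urolithin A over high anxiety and Igf1 higher for high over low anxiety, neither of them past 1.5-fold after centring on the median. The whole disease-associated list summed to 35123, 34141 and 39702 CPM in the urolithin A, high anxiety and low anxiety libraries. Of its 32 genes 12 had at least 50 UMIs in each library and 9 had at most 3 in each. Some markers of that state were at this low end: Spp1 had 0 UMIs in each library, Clec7a had 0, 1 and 0, Itgax 1, 1 and 0, and Cst7 2, 0 and 0 in the urolithin A, high anxiety and low anxiety libraries. Of 45 inflammatory genes 11 were measured and only Nfkb1 passed 1.5-fold in either comparison with the high anxiety library. After centring on the median 2 others were lower for high over low anxiety, against 124 of 2141 measured genes. The cytokine Il1b had 1, 1 and 0 UMIs, Tnf 5, 10 and 6, and Il6 1, 2 and 5 UMIs in the urolithin A, high anxiety and low anxiety libraries, which is too few for a comparison. The higher Nfkb1 of the high anxiety library thus came without a measurable level of these cytokines in nuclei. Of 38 interferon genes 6 were measured and 0 passed 1.5-fold in either comparison, and the inducible Mx1 had 2, 4 and 15 UMIs in the same order.

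Urolithin A is known for its action on mitochondria, so genes of that system were described separately. The 13 mitochondrially encoded genes summed to 9242 CPM in microglia nuclei of the urolithin A library, 7505 in the high anxiety library and 12231 in the low anxiety library, against 12946, 11145 and 10426 CPM in the other nuclei. For high over low anxiety 6 of 9 measured genes were lower, against 2.57% of all measured genes. The list's median log2 ratio was -0.67 in microglia nuclei, 0.14 in the other nuclei and -0.10 in oligodendrocyte nuclei. The member rule itself capped mitochondrial UMIs at 5% per nucleus, so these nuclei were chosen in part on the same UMIs. Mt-nd4, a subunit of respiratory complex I, stood at 1081 CPM in the urolithin A library, 746 in the high anxiety library and 1393 in the low anxiety library, a log2 ratio of -0.90 for high over low anxiety. For urolithin A over high anxiety the list's median was 0.33. Of its 9 measured genes 0 passed 1.5-fold there, against 3.22% higher and 6.34% lower of all measured genes. In nuclei these transcripts can come from cytoplasm that stays attached, and no label says whether free RNA had been removed. The part of nucleus preparation in the difference was not tested.

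Nuclear genes of mitochondria and of mitophagy differed less. Of all measured genes 3.22% were higher and 6.34% lower for urolithin A over high anxiety. The same shares for high over low anxiety were 8.13% and 2.57%. Of 8 measured nuclear respiratory chain genes 0 passed 1.5-fold for urolithin A over high anxiety. Ndufa13 and Cox6c were higher for high over low anxiety, against 8.13% of all measured genes. The mitophagy and autophagy list summed to 2402 CPM in the urolithin A library, 2676 in the high anxiety library and 2531 in the low anxiety library. Of its 9 measured genes, Ulk2, a kinase that starts autophagy, was lower for urolithin A over high anxiety with 34, 79 and 50 UMIs in the urolithin A, high anxiety and low anxiety libraries. Map1lc3a, of the autophagosome membrane, was higher for high over low anxiety with 35, 64 and 24 UMIs in the same order. Both genes reached the minimum only through a library where they were higher. Pink1, which marks damaged mitochondria, had 8, 15 and 10 UMIs and was too low to compare.

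Hormone and stress genes gave little signal. Nr3c1, the glucocorticoid receptor, had 101 UMIs in the urolithin A library, 153 in the high anxiety library and 82 in the low anxiety library, and Fkbp5, a gene it induces, had 13, 25 and 11 UMIs in the same order. The aryl hydrocarbon receptor gene Ahr had 2, 0 and 0 UMIs, and of its pathway list only its partner Arnt was measured, lower for urolithin A over high anxiety with a log2 ratio of -0.63 and under 1.5-fold after centring on the median. Proliferation was not detectable at this depth, since 0 of 24 cell cycle genes were measured and Mki67 had 2, 5 and 3 UMIs in the urolithin A, high anxiety and low anxiety libraries.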

How the data were processed

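The deposited matrices hold counts of UMIs per feature and barcode, made by the authors with the Cell Ranger pipeline (version 7.1.0, per the file headers). The submitters' processing notes name mRatBN7.2 as the genome. No label says whether free RNA or doublets had been removed. Nuclei were isolated on a density gradient from pooled punches and made into Chromium 3' libraries, per the labels' protocols. Each matrix was mapped to its group by the sample's own label.

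UMIs of the members were summed per library, scaled to CPM of all their UMIs, and compared as ratios with exact conditional 95% intervals. Shares have exact Clopper-Pearson intervals. A fold against fewer than 3 UMIs was not used as a bound. Named genes were the 8 highest and 8 lowest among genes enriched at least 2-fold in members (4 each for urolithin A over low anxiety), ordered by the interval bound nearest to 0, the 3 highest and 3 lowest of the others, the 4 members of each list furthest from 0, and genes fixed by name. Some genes that this rule picks are not reported here. The 22 lists hold 712 symbols, of which 673 matched the 23098 features. Values of genes with too few UMIs to be measured, of Ciita, Il6, Tnf, Mx1, Clec7a, Itgax, Cst7 and Mki67, are list members given to show their level, chosen after their values were seen. The members and lists were chosen with earlier results of these data known.

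Sub-clusters used 1000 variable genes, 15 components, 15 neighbours and resolution 0.5 (leidenalg 0.10.2, igraph 0.11.9). Doublets stayed in, and Scrublet (scanpy 1.11.5) marked 99 nuclei in the urolithin A library, 116 in the high anxiety library and 97 in the low anxiety library, among them 3, 4 and 3 members. Scripts ran on python 3.11.15, numpy 2.4.6, pandas 2.3.3, scipy 1.17.1 and scikit-learn 1.9.0 and were tested on simulated data. The alternatives changed the nucleus filter, the marker and exclusion thresholds, doublets, other immune markers, the UMI minimum, the scaling and the depth. No sequence is shown, since the comparisons rest on levels of whole genes.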

Additional observations from a re-analysis of the deposited data

How the results depend on the processing

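Each group is 1 library, so no library could be left out, and counting intervals are the only error. No paired analysis was possible because each group holds a single pooled library. The share of microglia nuclei was 2.87% in the low anxiety library with the stricter nucleus filter, and 6.09% in the high anxiety library with the stricter exclusion of neurons and myelin. Without members holding 3 or more UMIs of other immune markers it was 4.12% in the urolithin A library and 5.67% in the high anxiety library, by construction.

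Counts of genes past 1.5-fold moved most. For urolithin A over high anxiety, the higher genes were 23 with the stricter nucleus filter, 37 with doublets removed and 26 without members above 3500 UMIs, a setting chosen after seeing the data. For urolithin A over low anxiety, higher genes were 45 and lower genes 20 with the stricter filter, and higher genes were 46 with the stricter exclusion, 45 without other immune markers and 40 without members above 3500 UMIs. At a minimum of 100 UMIs the higher and lower genes were 14 and 25 for urolithin A over high anxiety, 38 and 25 for high over low anxiety, and 14 and 10 for urolithin A over low anxiety. At a minimum of 25 UMIs they were 238 and 410, 518 and 193, and 325 and 183 for the same 3 comparisons; fewer or more genes were tested by construction. Centring on the median gave 81 lower genes for urolithin A over high anxiety, and 106 higher and 124 lower for high over low anxiety. Thinning to 1000 UMIs gave 6 and 54, 82 and 35, and 19 and 27 higher and lower genes for the same 3 comparisons, over fewer UMIs.

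Of the named genes past 1.5-fold, 3 changed sign for urolithin A over high anxiety; genes nearer 0 were not counted in this way. Gpc5 was at 1.04 with the stricter exclusion and 1.95 with doublets removed, the cause of which was not tested. Dpp10 was at -0.56 and Kcnip4 at -0.000609 without members above 3500 UMIs, which held most of their UMIs. Over the named genes and alternatives, 3156 values lay within the main counting interval, 107 outside it, and 4 were such sign changes. The 3156 include values at the other UMI minimums and at the marker sum of 10, which equal the main values by construction. Of the list medians 564 moved by under 0.1 and 95 by more, and the marker sum of 10 could not move them. Class II values rest on few nuclei at this depth.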

Other observations

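Motility, purinergic and channel genes were the other well measured groups of microglia nuclei. Their counts stand against 3.22% higher and 6.34% lower of all measured genes for urolithin A over high anxiety. The same shares for high over low anxiety were 8.13% and 2.57%. Of 29 measured motility, adhesion and cytoskeleton genes, 0 passed 1.5-fold for urolithin A over high anxiety and 1 was higher for high over low anxiety, Tln1, which links integrins to actin, with medians of -0.13 and 0.11. After centring on the median Tln1 no longer passed. Of 10 purinergic genes 0 passed in either comparison, with medians of 0.04 and -0.18. Of 15 ion channel and transporter genes 0 passed for urolithin A over high anxiety, and Hvcn1, a proton channel of phagocytes, was higher for high over low anxiety with 37, 71 and 23 UMIs in the urolithin A, high anxiety and low anxiety libraries, and so measured only through the high anxiety library. Genes of the TGF-β and CSF1 axis, which maintains microglia, had 0 of 12 past 1.5-fold in either comparison and medians of -0.05 and 0.13.

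Cytosolic ribosomal protein genes had 6 of 17 measured members lower for urolithin A over high anxiety and 3 of 17 higher for high over low anxiety, against 6.34% and 8.13% of all measured genes. After centring on the median these counts were 2 and 2, against 81 of 2175 and 106 of 2141 measured genes. All 17 in the comparison of high with low anxiety, and 16 of 17 in the comparison of urolithin A with high anxiety, reached 50 UMIs only in the high anxiety library. Over all 73 matched genes the sum was 3919 CPM in the urolithin A library, 4662 in the high anxiety library and 3783 in the low anxiety library. The log2 ratios of those sums were -0.25 for urolithin A over high anxiety and 0.30 for high over low anxiety, against 0.08 and 0.19 in the other nuclei. The part of depth in these values was not tested.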
